A study of Mus musculus with 12 samples.

Results

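The RNA of 10 cytokine genes was followed in γδ T cells and thymic precursors of WT and GFI1 KO mice. The genes were taken by name from the gene list of the deposited matrices, and they are 10 of 33696 genes in all. They comprise the type 17 genes Il17a, Il17f and Il22, the type 1 gene Ifng, the type 2 genes Il4 and Il13, and Tnf, Ltb, Csf2 and Areg, which are not tied to one of these types. Every member was looked up in all 12 libraries, and members with few or no UMIs (unique molecular identifiers, the counted RNA molecules) were kept in the account.

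Single-cell RNA was measured by 10x Genomics 3′ counting in splenic γδ T cells (CD3+, CD4-negative), in thymic γδ T cells (CD4- and CD8-negative) and in thymic precursors that carry neither CD4 nor CD8, sorted as one pool of stages DN1 to DN3 and called DN1-DN3 cells here. The mice were adults on the C57BL/6J background, either WT or with a germline loss of GFI1, a transcriptional repressor, and both thymic populations came from the same animals. B cells, myeloid cells and NK cells were depleted before the sort, and no stimulation of the cells is given in the sources used here. WT and KO cells were tagged with different hashtag antibodies, mixed and run together in 6 pools, which were split by tag into 12 libraries, with 2 per genotype in each of 3 cell populations. Because the loss of GFI1 is germline, every cell of a KO mouse carries it, in the thymic stroma as well as in the sorted cells. The labels do not say how many animals entered a pool, so p-values measure the spread between these libraries only.

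The libraries held 42091895 to 71663962 UMIs in 6795 to 11679 cells, with medians of 4947 to 6853 UMIs per cell. RNA of the targeted gene was not lower in the KO libraries, and in each population both KO libraries were above both WT libraries. Gfi1 was at 11.8 and 18.0 UMIs per 1000000 UMIs of the library (CPM) in the splenic WT libraries and at 18.1 and 18.1 CPM in the KO libraries. In thymic γδ T cells it was at 16.5 and 17.6 CPM in WT and 29.0 and 19.2 CPM in KO, and in DN1-DN3 cells at 44.7 and 40.6 CPM in WT and 70.6 and 56.6 CPM in KO. The sources used here do not give where the 3′ reads lie relative to the deleted part of the gene, so these levels check nothing, and WT and KO below are the libraries labelled so. The sorts matched their defining markers: Trdc, the constant gene of the δ chain, was at 1233 to 2051 CPM in the γδ T libraries and at 126 to 199 CPM in the DN1-DN3 libraries, while Ptcra, the pre-T-cell receptor chain, was at 95.4 to 168 CPM in DN1-DN3 libraries and at most 5.07 CPM elsewhere. Splenic libraries held at most 0.374 CPM of Xist and thymic libraries 739 to 1600 CPM, while Ddx3y, a Y-linked gene, was at 82.2 to 100.3 CPM in splenic and 11.6 to 35.8 CPM in thymic libraries, so the organs also differ in the sex markers of the mice. Within DN1-DN3 cells Ddx3y also differed between the genotypes, at 28.0 and 26.0 CPM in WT and 11.6 and 14.2 CPM in KO, and its part in the results was not tested.

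γδ T cells acquire much of their cytokine program in the thymus, where cells bound to make IL-17 depend on transcription factors such as MAF, while IFN-γ producers depend on T-bet. IL-17A and IL-17F recruit neutrophils and are made from neighbouring genes, IL-22 acts on epithelia, and IFN-γ activates macrophages. IL-4 and IL-13 are the classical type 2 cytokines, which some innate-like γδ T cells that carry the transcription factor PLZF (Zbtb16) also make. TNF and lymphotoxin β (Ltb) belong to one family of inflammatory and tissue-organising ligands, Csf2 encodes the myeloid growth factor GM-CSF, and Areg encodes amphiregulin, a ligand of the EGF receptor in tissue repair.

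Promoters are shown for Il17a and Il17f, which were both higher in KO spleen, and for Il4, which was lower there. The 250 bases before the start site are from RefSeq on assembly GRCm38.p6, where all 10 members had an entry, and are written 5′ to 3′ on the strand of the gene. Capitals mark AATC or its reverse complement GATT, the core that GFI1 binds, and AGGTCA or TGACCT, a half-site shared by many nuclear receptors. No letter is shared between the marked motifs.
Il17a, chr1:20730655-20730904, plus strand: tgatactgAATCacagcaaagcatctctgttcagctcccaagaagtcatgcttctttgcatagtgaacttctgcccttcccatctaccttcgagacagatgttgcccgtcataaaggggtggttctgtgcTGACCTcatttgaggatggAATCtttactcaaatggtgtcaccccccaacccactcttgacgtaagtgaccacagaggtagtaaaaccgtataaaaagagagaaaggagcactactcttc
Il17f, chr1:20784271-20784520, minus strand: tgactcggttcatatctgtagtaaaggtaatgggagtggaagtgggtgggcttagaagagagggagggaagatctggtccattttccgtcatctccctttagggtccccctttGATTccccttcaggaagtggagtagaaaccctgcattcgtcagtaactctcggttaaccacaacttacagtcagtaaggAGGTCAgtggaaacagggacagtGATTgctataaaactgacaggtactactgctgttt
Il4, second start site, chr11:53618666-53618915, minus strand: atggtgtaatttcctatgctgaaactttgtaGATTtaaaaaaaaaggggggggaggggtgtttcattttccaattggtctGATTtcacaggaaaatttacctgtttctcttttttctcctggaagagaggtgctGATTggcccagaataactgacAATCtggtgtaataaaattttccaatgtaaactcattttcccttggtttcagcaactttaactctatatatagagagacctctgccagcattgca

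The start sites of Il17a and Il17f lie 53.4 kb apart. Each of their promoters held AATC at 2 places and AGGTCA at 1 place, 120 bases before the start of Il17a and 58 bases before that of Il17f. No other member's promoter held AGGTCA, which was present in 14% of 32851 mouse promoters of this length. AATC is a frequent word, present in 69% of these promoters. It was found 4 times before the second start site of Il4, 3 times in Tnf and Il13, 2 times in Ifng, and 1 time in Il22, Csf2 and Areg, and it was absent from the window of Ltb and of the first start site of Il4. These matches are descriptions of the letters and no evidence of binding.

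Loss of GFI1 went with more Il17a RNA in all 3 populations. In splenic γδ T cells Il17a was at 0.546 and 0.907 CPM in the WT libraries and at 26.3 and 43.0 CPM in the KO libraries. The thymic γδ T libraries of WT held 0.916 and 1.19 CPM and those of KO 95.7 and 93.4 CPM. In DN1-DN3 cells the values were 0.0647 and 0.0321 CPM in WT, which are only 4 and 2 UMIs, and 8.51 and 2.83 CPM in KO. The genotypes did not overlap in any population, and the KO libraries of the thymic γδ T cells lay above all others. The fitted log2 difference of KO over WT was 5.62 ± 0.49 (SE) in the spleen, 6.60 ± 0.47 in thymic γδ T cells and 6.77 ± 0.75 in DN1-DN3 cells (edgeR quasi-likelihood test, Benjamini-Hochberg adjusted p = 8.46e-06, 7.79e-06 and 0.000276). Within a pool the ratio of KO to WT CPM was 48.2 and 47.4 in the spleen, 104.5 and 78.7 in thymic γδ T cells and 131.5 and 88.0 in DN1-DN3 cells.

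The rise of Il17a was visible as a larger share of cells with a UMI. In the spleen 0.243% and 0.430% of WT cells and 7.59% and 13.4% of KO cells held at least 1 Il17a UMI. In the thymic γδ T libraries the shares were 0.675% and 0.891% in WT and 24.5% and 23.8% in KO. The positive cells of KO thymus also held more UMIs each, with means of 2.44 and 2.34 against 1.17 and 1.20 in WT. Bulk sums of this kind cannot tell more cells of a type from more RNA per cell, and the shares do so only in part, since a cell with little RNA can be read as negative. WT and KO cells of a pool shared the droplet run, and the part of free RNA in the shares was not tested in γδ T cells. After every cell was thinned to 2000 UMIs, the mean splenic share was 0.148% in WT and 4.95% in KO. With 2 libraries against 2, an exact two-sided permutation test of shares cannot go below p = 0.33, so shares are given as values.

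**Figure D1:**
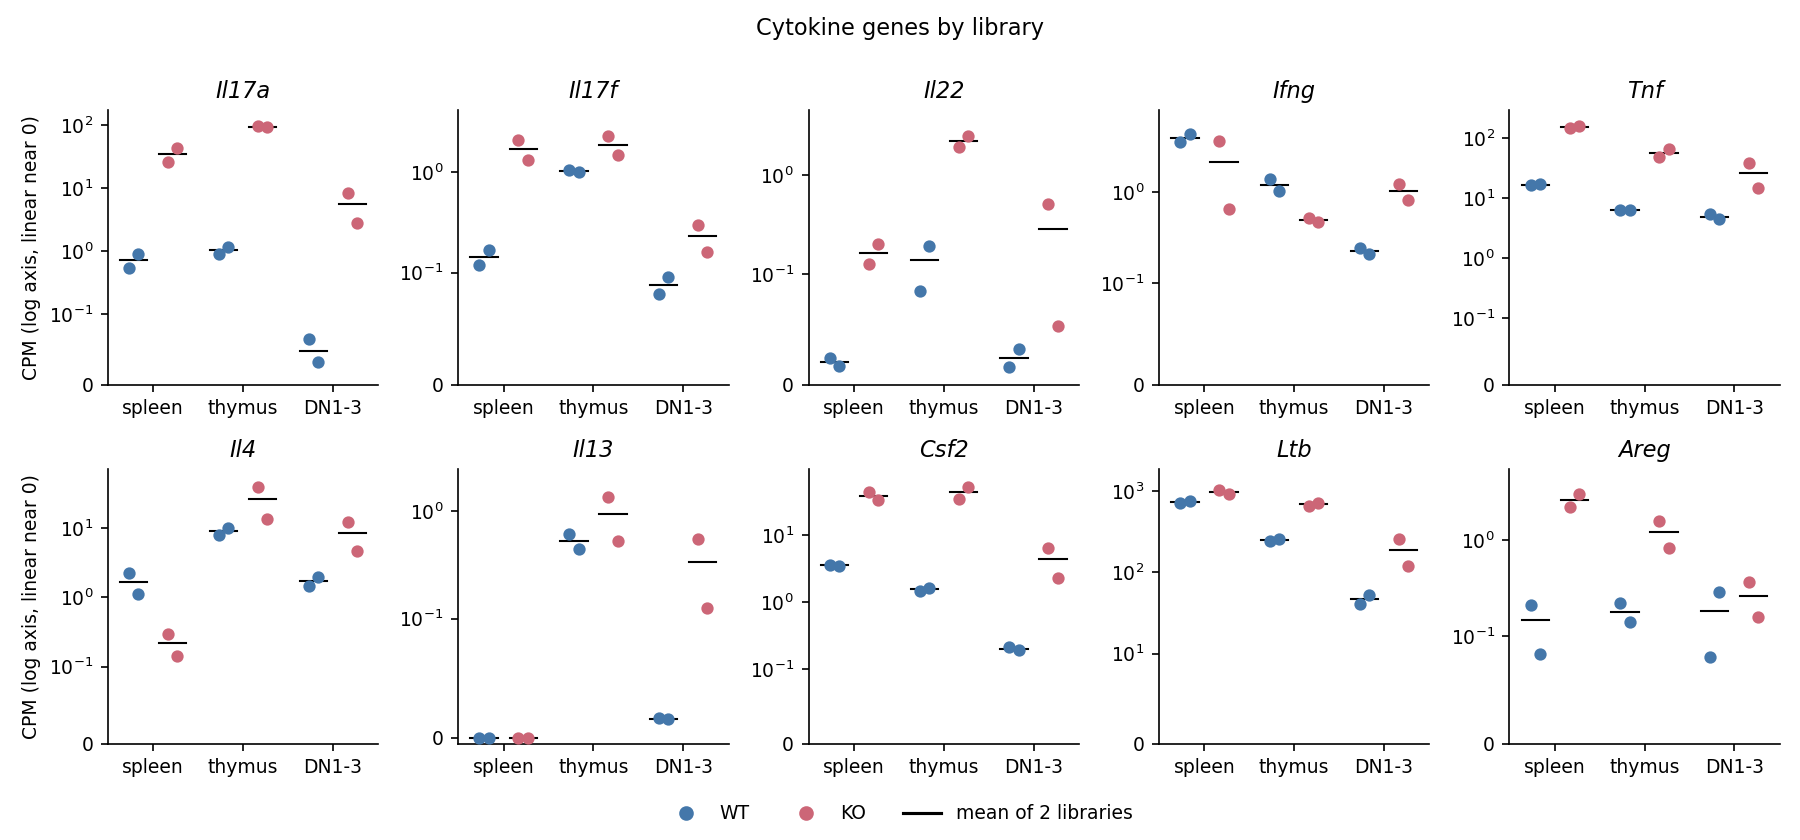
Level of each of the 10 genes in each library, in CPM on a log axis that becomes linear near 0, with WT libraries in blue, KO libraries in red and a bar at the mean of the 2 libraries. Il17a, Tnf and Csf2 are higher in both KO libraries of each population, Il4 is lower in KO spleen and higher in KO thymus, and Il13 is at 0 in all 4 splenic libraries.

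Il17f, which can pair with IL-17A in a heterodimer, did not follow Il17a to the same extent. In the spleen it was at 0.119 and 0.168 CPM in WT (5 and 10 UMIs) and at 2.05 and 1.32 CPM in KO, a log2 difference of 3.60 ± 0.40 (edgeR, adjusted p = 3.83e-05). In thymic γδ T cells the WT libraries already held 1.05 and 0.991 CPM, and the KO libraries held 2.27 and 1.46 CPM. This difference of 0.98 ± 0.32 passed the test (adjusted p = 0.0263) but did not pass it with DESeq2 (0.0656) or without either WT library or the first KO library (0.0963 to 0.176). In DN1-DN3 cells Il17f was at 0.0809 and 0.0963 CPM in WT and 0.300 and 0.160 CPM in KO, and the difference of 1.32 ± 0.51 did not pass (adjusted p = 0.0898). The WT thymic Il17f RNA was concentrated in few cells. Its positive cells held 2.48 and 2.29 UMIs on average, with up to 16 and 14 in one cell, and 10 cells of each library held 75.8% and 69.0% of the UMIs. In KO thymus the means were 1.66 and 1.27 UMIs, no cell held more than 4, and the 10 richest cells held 35.4% and 36.4%.

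Il22 was close to the limit of counting outside the KO thymus. It held 1 to 14 UMIs in each WT library and entered the fit through the counts of its KO libraries, so its calls carry that limit. The splenic libraries held 1 and 1 UMIs in WT and 6 and 14 UMIs in KO, which is 0.0238 and 0.0168 CPM against 0.128 and 0.201 CPM. The log2 difference of 3.06 ± 1.21 did not pass (edgeR, adjusted p = 0.0536), and it passed with DESeq2 (0.039) and with the pool number as a replicate block (0.03). Il22 rose in thymic γδ T cells from 0.0848 and 0.195 CPM to 1.94 and 2.51 CPM, a log2 difference of 4.06 ± 0.67 (adjusted p = 0.000654). In DN1-DN3 cells the UMIs were 1 and 2 in WT and 24 and 3 in KO, so that the second KO library, at 0.0533 CPM, lay near the WT libraries at 0.0162 and 0.0321 CPM. The difference of 3.35 ± 1.04 passed (adjusted p = 0.0426) but was 1.11 (adjusted p = 0.587) without the first KO library, and did not pass without either WT library (0.132 and 0.191).

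Tnf, an early inflammatory cytokine made by many lymphocytes, rose in all 3 populations. In the spleen it was at 16.6 and 16.9 CPM in WT and at 147.6 and 161 CPM in KO. The thymic γδ T libraries held 6.24 and 6.41 CPM in WT and 47.5 and 65.6 CPM in KO. In DN1-DN3 cells the libraries held 5.36 and 4.40 CPM in WT and 38.7 and 14.5 CPM in KO. The genotypes did not overlap, and the splenic KO libraries were the highest of the 12. The log2 differences were 3.30 ± 0.35, 3.29 ± 0.36 and 2.42 ± 0.36 (edgeR, adjusted p = 3.33e-05, 5.96e-05 and 0.00118). A Tnf UMI was found in 7.03% and 6.70% of splenic WT cells and in 45.5% and 45.0% of splenic KO cells, and after thinning to 2000 UMIs the means were 2.94% and 23.3%.

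Ltb, which forms the membrane-bound lymphotoxin trimer with lymphotoxin α, was detected in most γδ T cells of both genotypes. In the spleen it was at 723 and 762 CPM in WT and 1037 and 939.5 CPM in KO, with a UMI in 87.8% and 88.3% of WT cells and 95.8% and 95.1% of KO cells. The groups did not overlap, but the log2 difference of 0.51 ± 0.27 did not pass (edgeR, adjusted p = 0.133). It passed at 0.46 (adjusted p = 0.00378) when only the splenic libraries entered the fit. In the thymic γδ T libraries Ltb rose from 247 and 256 CPM to 658.5 and 721 CPM, by 1.58 ± 0.27 (adjusted p = 0.000951). In DN1-DN3 cells it rose from 40.7 and 53.2 CPM to 258 and 121 CPM, by 1.99 ± 0.28 (adjusted p = 0.000906), and the share of positive cells was 22.2% and 26.9% in WT and 51.3% and 33.9% in KO.

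Csf2 rose in each population. Its level was 3.54 and 3.49 CPM in WT and 43.4 and 32.8 CPM in KO spleen, 1.48 and 1.63 CPM in WT and 34.0 and 52.8 CPM in KO thymic γδ T cells, and 0.210 and 0.193 CPM in WT and 6.43 and 2.26 CPM in KO DN1-DN3 cells. No KO library overlapped with the WT libraries of its population. The log2 differences were 3.53 ± 0.39, 4.93 ± 0.42 and 4.38 ± 0.56 (edgeR, adjusted p = 4.50e-05, 1.65e-05 and 0.000568). The GM-CSF message was spread thinly over many cells. In KO spleen 21.2% and 16.5% of cells held a UMI with a mean of 1.23 and 1.18 UMIs per positive cell, against 1.68% and 1.66% of WT cells.

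Areg was low throughout and rose in γδ T cells of both organs. The splenic libraries held 0.214 and 0.0840 CPM in WT and 2.20 and 2.98 CPM in KO, and the thymic γδ T libraries 0.221 and 0.140 CPM in WT and 1.58 and 0.816 CPM in KO. The log2 differences were 4.27 ± 0.61 and 2.85 ± 0.58 (edgeR, adjusted p = 0.000204 and 0.00245). In DN1-DN3 cells the genotypes overlapped at 0.0809 and 0.289 CPM in WT and 0.364 and 0.160 CPM in KO, and the difference of 0.45 ± 0.67 did not pass (adjusted p = 0.665). Of the 18 Areg UMIs in the second WT DN1-DN3 library, 14 came from 1 cell.

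Ifng, the type 1 cytokine, passed the test in none of the 3 populations. In the spleen it was at 3.49 and 4.35 CPM in WT and at 3.59 and 0.647 CPM in KO. By CPM the first KO library thus lay among the WT libraries and the second below them. The share of splenic cells with an Ifng UMI was 1.535% and 1.72% in WT and 1.139% and 0.283% in KO, so by share both KO libraries were below WT. Positive cells of the first KO library held 1.888 UMIs on average, against 1.225 and 1.349 in WT. The log2 difference of -0.81 ± 0.58 did not pass (edgeR, adjusted p = 0.258), and it was -2.53 without the first KO library, which left 1 KO library. Both thymic γδ T KO libraries were below WT, at 0.519 and 0.463 CPM against 1.37 and 1.02 CPM, with a difference of -1.16 ± 0.68 (adjusted p = 0.186) that passed when only these 4 libraries entered the fit (0.02). In DN1-DN3 cells both KO libraries were above WT, at 1.22 and 0.818 CPM against 0.243 and 0.209 CPM. That difference of 2.15 ± 0.73 did not pass (adjusted p = 0.0619), but it passed with DESeq2 (0.0105) and when only the DN1-DN3 libraries entered the fit (0.0141).

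The splenic cells with an Ifng UMI carried the type 1 regulator Tbx21, which encodes T-bet, more often than the rest. Tbx21 was detected in 52.5% and 52.1% of Ifng-positive WT cells and in 17.5% and 20.1% of Ifng-negative WT cells. In KO the shares were 59.6% and 54.6% of Ifng-positive cells and 15.2% and 7.93% of the others. Markers of NK cells and group 1 innate cells (Ncr1, Klrb1c, Gzma, Eomes) summed to 125 and 132 CPM in splenic WT and to 36.2 and 28.1 CPM in splenic KO libraries, and their part in the Ifng levels was not tested. Ncr1, the most specific of the 4, was at 3.07 and 2.22 CPM in WT and 0.0641 and 0.0432 CPM in KO, and it was detected in 6.67% and 3.13% of the Ifng-positive WT cells.

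Il4 moved in opposite directions in the spleen and the thymus. In the spleen it was at 2.26 and 1.11 CPM in WT and 0.299 and 0.144 CPM in KO, with a log2 difference of -2.87 ± 0.79 (edgeR, adjusted p = 0.0117). Thymic γδ T cells held 7.92 and 9.91 CPM in WT and 38.9 and 13.7 CPM in KO, with a difference of 1.66 ± 0.52 (adjusted p = 0.0224). In DN1-DN3 cells it was at 1.46 and 1.96 CPM in WT and 12.3 and 4.69 CPM in KO, with a difference of 2.28 ± 0.56 (adjusted p = 0.017) that was 0.80 (0.471) in the cells without a UMI of Trac, the TCR α chain constant gene. The CPM of the genotypes did not overlap in any of the 3 populations, and in both thymic populations the first KO library was the higher one. The share of thymic γδ T cells with an Il4 UMI did overlap, at 3.17% and 3.58% in WT and 9.40% and 3.27% in KO. All 3 calls were fragile: without a filter on low counts the adjusted p was 0.0579, 0.091 and 0.0763. Without the first KO library neither thymic population passed (adjusted p = 0.274 in γδ T cells, with a log2 difference of 0.78, and 0.226 in DN1-DN3 cells). Leaving out either thymic WT library or either DN1-DN3 WT library also ended the call of that population (0.0667 to 0.13), and the splenic call was lost without the first WT library (0.0637) or the second KO library (0.0965).

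Cells with an Il4 UMI were rich in Zbtb16, the gene of PLZF. In WT thymic γδ T cells Zbtb16 was detected in 72.7% and 78.2% of the cells with Il4 and in 11.1% and 11.4% of the others. In KO it was detected in 94.2% and 92.8% of the Il4-positive and in 65.0% and 67.6% of the other cells. Of the mast cell and basophil markers, Mcpt8, Fcer1a and Ms4a2 were at 0 in the thymic γδ T libraries and at most 0.385 CPM elsewhere. The fourth, Cpa3, was at 222 and 172 CPM in WT and 39.5 and 25.4 CPM in KO thymic γδ T cells.

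Il13 was not detected in the spleen, with 0 UMIs in all 4 libraries. A count of 0 there allows up to 0.0257% to 0.0384% of cells with a UMI, by 3 cells of each library, so no difference can be given for the spleen. Il13 in thymic γδ T cells was at 0.611 and 0.447 CPM in WT and 1.37 and 0.529 CPM in KO, and the second KO library lay between the WT libraries. The log2 difference of 0.95 ± 0.61 did not pass (edgeR, adjusted p = 0.23). In DN1-DN3 cells the WT libraries held 1 UMI each and the KO libraries 26 and 7, which gave 4.16 ± 1.08 (adjusted p = 0.028). This call was lost without either WT library (log2 differences of 4.09 and 4.19, adjusted p = 0.137 and 0.127) and without the first KO library (2.82, 0.158). It was also lost in the cells without a Trac UMI (2.59, 0.326), and the cells with one held 84.6% and 85.7% of the Il13 UMIs of the KO libraries.

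All 10 members passed the filter on low counts in the fit of the 12 libraries. Il22 passed it through its KO libraries, so the counts of members that follow include its calls with that limit. In the spleen 5 of the 9 members with UMIs rose (Il17a, Il17f, Tnf, Csf2 and Areg) and Il4 fell, where 28.6% of all 14911 genes tested rose and 26.1% fell. In thymic γδ T cells 8 of 10 rose (all but Ifng and Il13) and none fell, where 26.1% of all genes rose and 23.7% fell. In DN1-DN3 cells 7 of 10 rose (Il17a, Il22, Tnf, Il4, Il13, Csf2 and Ltb) and none fell, where 15.2% rose and 7.73% fell. Trac moved with this count, with a UMI in 7.09% and 6.53% of WT cells and 35.2% and 17.9% of KO cells. In the cells without a Trac UMI 4 members were called (Il17a, Tnf, Csf2 and Ltb), and the share of all genes called in that fit is not given here. Leaving out either WT library or the first KO library also gave 4. The median log2 difference of the members was 3.30, 2.25 and 2.35 in the 3 populations, and that of all genes tested was 0.00, -0.00 and -0.02.

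**Figure D2:**
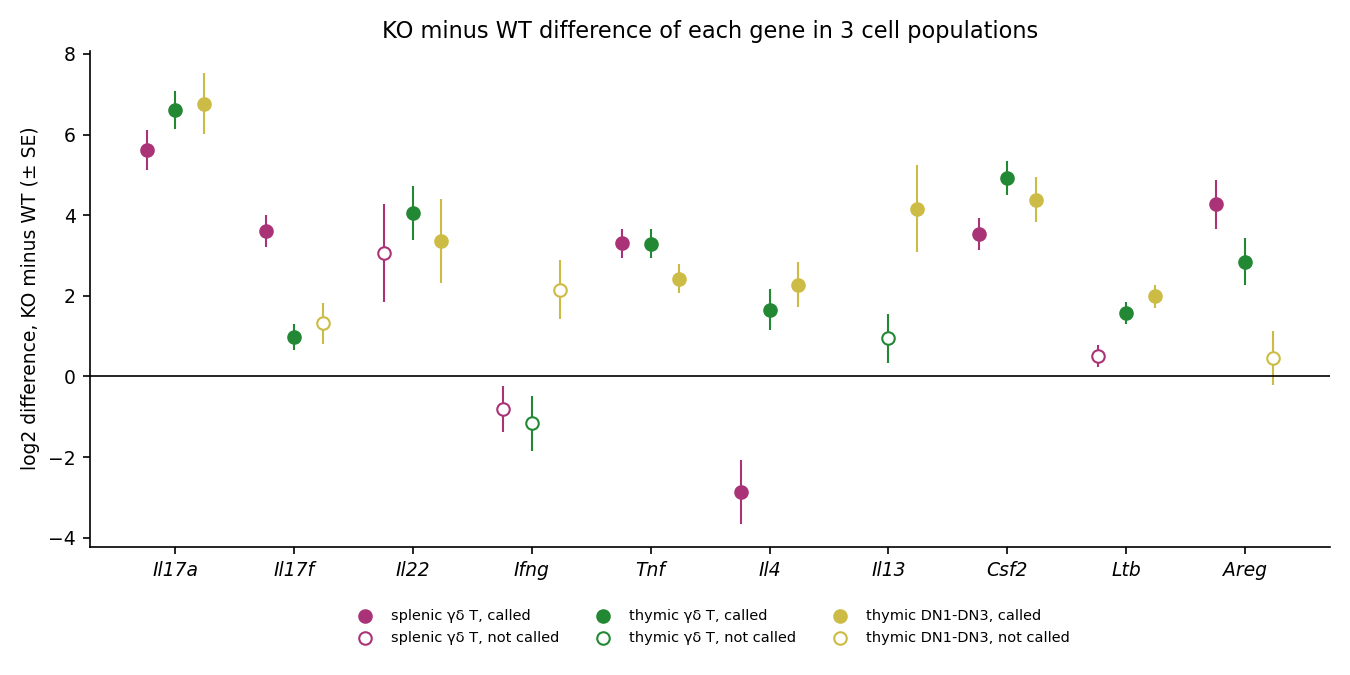
Fitted log2 difference of KO over WT for each gene in splenic γδ T cells, thymic γδ T cells and DN1-DN3 cells, with bars of 1 SE. Filled points passed the test at an adjusted p of 0.05 and open points did not. Il17a is between 5.62 and 6.77 in all 3 populations, while Il4 is at -2.87 in the spleen and above 0 in the thymic populations. Il13 has no splenic point because it had no UMI there.

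The KO effect was then compared between splenic and thymic γδ T cells by an interaction term in the same fit. It passed for Il17f, whose effect was larger in the spleen by 2.62 ± 0.52 on the log2 scale (edgeR, adjusted p = 0.00468), and for Il4, whose effect was lower in the spleen by 4.53, that is -4.53 ± 0.94 (adjusted p = 0.00629). Both passed in each of the 17 alternative settings. For Tnf the effects differed by 0.01 ± 0.49 and for Il17a by -0.98 ± 0.68, and neither passed (adjusted p = 1 and 0.309). Csf2 at -1.40 ± 0.54 and Ltb at -1.07 ± 0.38 did not pass either (adjusted p = 0.0793 and 0.0577). Ltb passed with DESeq2 (0.014), with UMIs capped per cell (0.0383) and in a fit of only the compared libraries (0.000688), and Csf2 with DESeq2 (0.0318) and in that fit (0.0335). With the pool number as a replicate block 4 members passed instead of 2, among them Il17a at -0.95 (adjusted p = 0.00779) and Csf2 at -1.40 (0.0137). In all, 2 of 9 members passed, where 29.5% of all genes did. Spleen and thymus were sorted separately and differ in Xist and Ddx3y, as given above, so organ, sort and sex markers cannot be told apart.

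The members were also compared between thymic γδ T cells and the DN1-DN3 cells of the same animals, for which the main fit held no term. In KO, Ddx3y was at 35.6 and 24.3 CPM in the γδ T libraries and at 11.6 and 14.2 CPM in the DN1-DN3 libraries. In WT it was at 30.15 and 35.76 CPM against 28.02 and 25.96 CPM. Its part in this comparison was not tested. Within WT 7 of 10 were higher in γδ T cells, where 24.3% of all genes were. They were Il13 (log2 difference 4.86, edgeR adjusted p = 0.00496), Il17a (4.41, 0.00351), Il17f (3.51, 0.000121), Csf2 (2.96, 0.00283), Ltb (2.44, 0.000104), Ifng (2.41, 0.0196) and Il4 (2.40, 0.00604). Tnf differed by 0.40, Il22 by 2.48 and Areg by -0.05 without passing (adjusted p = 0.388, 0.092 and 0.965). The Ifng call within WT was lost without the first thymic γδ T library or either DN1-DN3 library (0.0841 to 0.0911), and the Il4 call without the first DN1-DN3 library (0.0534). Tnf within WT passed when only the compared libraries entered the fit (0.016). Within KO 8 of 10 were higher in γδ T cells, where 30.3% of all genes were. Tnf (1.27, adjusted p = 0.00811), Il22 (3.19, 0.00178) and Areg (2.35, 0.00557) passed within KO, while Ifng (-0.90, 0.297) and Il13 (1.65, 0.0583) did not. The Tnf call within KO was lost in a fit of only the compared libraries (0.0886) and without the second thymic γδ T library (0.0734). The Il4 call within KO (1.78, 0.0146) was lost in that fit (0.0791), with no filter on low counts (0.0667), without the first thymic γδ T library (0.192) and without the second DN1-DN3 library (0.161). Il13 passed within KO with the replicate number as a block over both populations (0.0131). Its log2 difference was 2.16 without the second thymic γδ T library and 2.92 without the first DN1-DN3 library. Whether the differences between γδ T and DN1-DN3 cells themselves differed between the genotypes was not tested.

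Splenic WT and KO cells differed in their Trgv genes, so the members were compared by the Trgv gene with the most UMIs in each cell. Cells with a tie for the most UMIs or with a leading Trgv gene other than Trgv1, Trgv2, Trgv4 and Trgv6 are in no class. Such cells were a larger part of the KO than of the WT splenic libraries. Trgv6 led in 188 and 229 WT cells and in 3422 and 4613 KO cells, and Trgv2 in 3148 and 4939 WT cells and in 1322 and 2793 KO cells. Among Trgv2 cells Il17a was detected in 0.254% and 0.506% in WT and in 7.64% and 13.2% in KO. Among Trgv6 cells the shares were 2.13% and 2.18% in WT and 8.18% and 14.7% in KO. A leading Trgv gene is not a sure class, since 3′ reads capture these variable genes in part, and Trgv2 also led in 3552 of 7207 cells of the first WT DN1-DN3 library. Tnf was detected in 43.9% and 45.8% of KO Trgv2 cells and in 48.3% and 46.3% of KO Trgv6 cells. In WT it was detected in 7.12% and 6.60% of Trgv2 cells and in 23.4% and 16.6% of Trgv6 cells. For Csf2 the WT shares were 1.37% and 1.60% in Trgv2 cells and 13.3% and 9.61% in Trgv6 cells, and the KO shares were 21.6% and 18.0% against 22.1% and 16.6%.

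Within the Trgv6 cells of the spleen Tnf and Il17a were higher in KO, where 5.20% of 11492 genes were. Tnf differed by 1.82 ± 0.17 on the log2 scale (edgeR, adjusted p = 3.64e-05). Il17a differed by 3.37 ± 0.46 (adjusted p = 0.00133) on 4 and 5 WT UMIs, and did not pass without the first WT library (0.177) or the second (0.31). Areg had no UMI in WT Trgv6 cells and could enter the fit only through its KO level, so its test is not used. Its pooled KO level of 3.03 CPM was at least 2.61-fold higher than the 3-UMI floor of the WT cells together. Ltb was at 1038 and 951 CPM in WT and 1021 and 924 CPM in KO Trgv6 cells, a difference of -0.07 ± 0.14 (adjusted p = 0.822). Csf2, at 25.6 and 19.9 CPM in WT and 44.1 and 31.6 CPM in KO, differed by 0.71 ± 0.28 without passing (adjusted p = 0.154), and it passed with the replicate block (0.0447), with no filter on low counts (0.00553) and without the second KO library (0.0345). Il17f and Ifng had 1 UMI each in all WT Trgv6 cells, so their tests are not used, and Il22, Il4 and Il13 were too low in these cells to be tested.

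**Figure D3:**
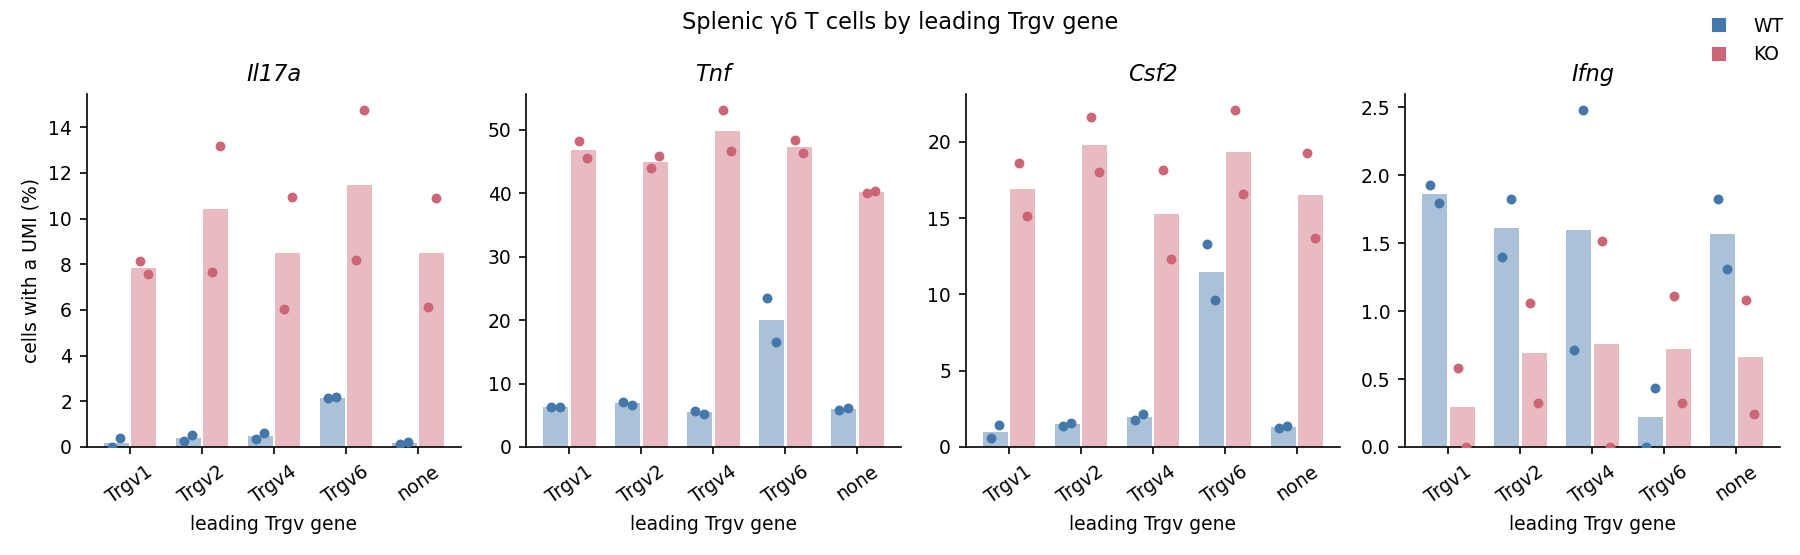
Share of splenic γδ T cells with a UMI of Il17a, Tnf, Csf2 and Ifng by the leading Trgv gene of the cell, in percent, with WT in blue and KO in red. Bars are the mean of 2 libraries, points are the libraries, and none stands for cells without a Trgv UMI. Cells with a tie between Trgv genes or with another leading Trgv gene are not drawn. In KO the shares of Tnf lie between 40.0% and 53.0% in every class drawn, and in WT the Trgv6 cells are the highest class for Il17a, Tnf and Csf2.

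In the thymus the Trgv classes separated Il17a from Il4. Trgv6 led in 41 and 57 WT γδ T cells and in 2028 and 2691 KO γδ T cells. Among KO cells Il17a was detected in 38.5% and 29.5% of the Trgv6 cells, in 17.1% and 20.4% of the Trgv2 cells and in 9.61% and 17.8% of the Trgv1 cells. Il4 ran in the opposite order over these 3 classes, while the few KO Trgv4 cells were below the Trgv2 cells for both genes, with Il17a in 12.4% and 13.7% and Il4 in 9.30% and 4.84%. It was detected in 0.690% and 0.446% of KO Trgv6 cells, in 14.9% and 5.47% of KO Trgv2 cells and in 37.3% and 22.0% of KO Trgv1 cells. The Trgv1 cells of WT thymus held an Il4 UMI in 5.42% and 8.79%. On the CPM scale Il4 in Trgv1 cells was at 11.4 and 25.2 in WT and 151.9 and 97.7 in KO, so within this class both KO libraries were well above WT, including the second library, in which the whole population was at 13.7 CPM.

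Single cells rarely carried Il17a and Il4 together. In KO thymic γδ T cells 25 and 13 cells held both, where the product of the shares gives 157 and 59.2 cells. Il4 and Il13, which lie next to each other in the type 2 cytokine locus, were found together. In the first KO library 39 of 47 Il13-positive cells held Il4 (product 4.42 cells), and in the second WT library 17 of 24 did (0.858 cells). Il17f-positive cells often held Il17a, with 33 of 58 and 23 of 52 cells in KO thymus and 18 of 38 and 29 of 41 cells in KO spleen. Il17a and Il22 met in 12 and 18 KO thymic cells, which is 0.830 and 0.749 times the product. With 30 cells in all against a product of 38.5, this cannot be told from the product beyond counting error. Il17a and Csf2 met in 1.52 and 1.45 times as many KO thymic cells as the product gives. In WT spleen Tnf and Csf2 were found together 3.69 and 2.50 times as often as the product. In KO spleen it was 1.08 and 1.11 times, where 815 and 959 cells held both. Such a ratio has a lower ceiling where a gene is in more cells. Tnf was in 7.03% and 6.70% of WT and in 45.5% and 45.0% of KO cells, so these ratios are not compared between the genotypes. Il17a and Ifng shared 1 and 4 KO splenic cells, where the product gives 6.75 and 4.43. Deep cells raise all such ratios, and they are descriptions.

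**Figure D4:**
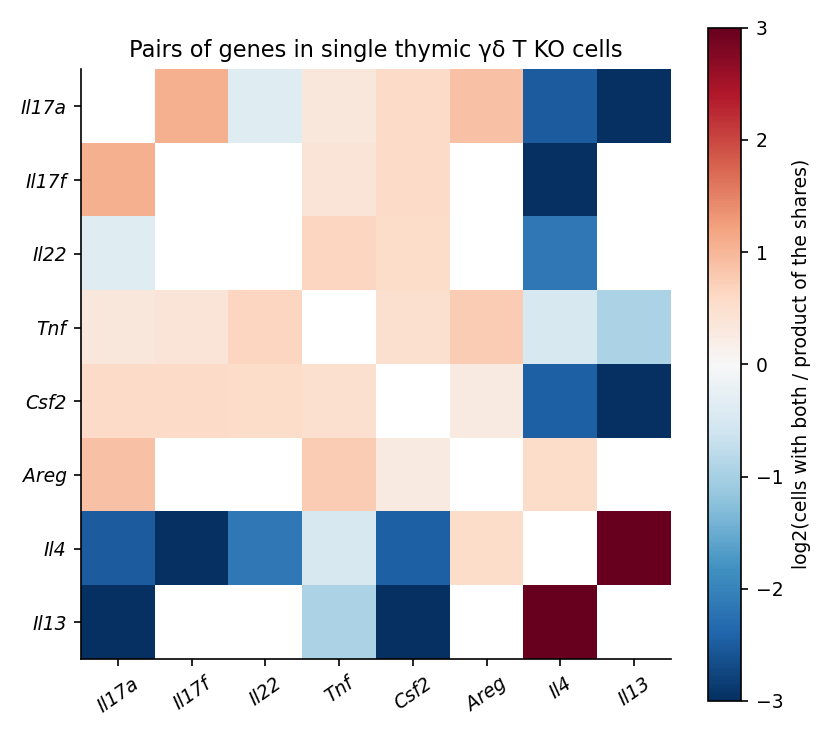
Log2 ratio of thymic γδ T KO cells that held UMIs of both genes to the number given by the product of the shares, over both KO libraries, with red for more and blue for fewer. Blank fields have a product under 3 cells, a pair seen in no cell is drawn as 0.5 cells, and colours end at -3 and 3. Il4 with Il13 is at 3.42, Il17a with Il4 at -2.51 and Csf2 with Il4 at -2.45, while Il17a with Il17f is at 1.08.

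Leaving Ltb aside, most WT cells held no UMI of the other 9 members. The share without any was 89.5% and 89.8% in WT and 39.9% and 40.8% in KO spleen, 90.1% and 89.2% in WT and 46.4% and 44.6% in KO thymic γδ T cells, and 94.7% and 95.3% in WT and 77.8% and 88.6% in KO DN1-DN3 cells. No cell held more than 4 of the 9. Among splenic KO cells 44.7% and 43.4% held 1 member and 13.7% and 13.7% held 2.

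The DN1-DN3 libraries differed in Trac, the constant gene of the TCR α chain, which the labelled precursors should not yet transcribe at a high level. It was at 18.8 and 20.7 CPM in WT and 154 and 65.6 CPM in KO libraries, with a UMI in 7.09% and 6.53% of WT cells and 35.2% and 17.9% of KO cells. The αβ T cell list (Trac, Cd4, Cd8a, Cd8b1) summed to 27.3 and 31.4 CPM in WT and 164 and 72.0 CPM in KO, and the other 3 genes were at 9.01 CPM or less in each DN1-DN3 library. The Trac-positive cells held 64.7% and 66.7% of the Il17a UMIs of the KO libraries, 91.3% and 81.1% of the Il4 UMIs, 68.3% and 63.0% of the Csf2 UMIs, 70.1% and 58.1% of the Ltb UMIs and 61.9% and 50.1% of the Tnf UMIs. The DN1-DN3 comparison was therefore repeated on the cells without a Trac UMI, a choice made after the Trac levels were seen. Il17a (5.82, edgeR adjusted p = 0.00672), Csf2 (4.40, 0.00626), Tnf (1.77, 0.0143) and Ltb (1.21, 0.00973) still passed there. Il4 (0.80, 0.471), Il22 (3.07, 0.153), Il13 (2.59, 0.326) and Ifng (1.67, 0.36) did not, nor did Il17f (0.39, 0.726) and Areg (-0.42, 0.796).

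Among the cells with a Trac UMI the share of positive cells overlapped between the genotypes for Il4 and not for the other members given here. Il4 was detected in 7.83% and 10.0% of the Trac-positive WT cells and in 11.4% and 9.59% of the Trac-positive KO cells. Its CPM in these cells did not overlap, at 9.93 and 14.3 in WT and 33.0 and 24.6 in KO. The KO cells were shallower, with medians of 5620 and 5126 UMIs against 6486 and 6422 in WT. Ifng was detected in 1.57% and 1.43% in WT and 1.59% and 2.29% in KO, at 1.91 and 1.34 CPM against 2.85 and 3.90 CPM. Il17a was found in 1 of 511 and 0 of 488 Trac-positive WT cells and in 4.80% and 2.51% of the KO cells. Tnf was found in 8.61% and 8.20% in WT and 23.8% and 17.3% in KO, and Csf2 in 1.17% and 1.84% in WT and 7.16% and 5.53% in KO. A cell without a Trac UMI can still transcribe the gene below detection, so the split is incomplete.

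**Figure D5:**
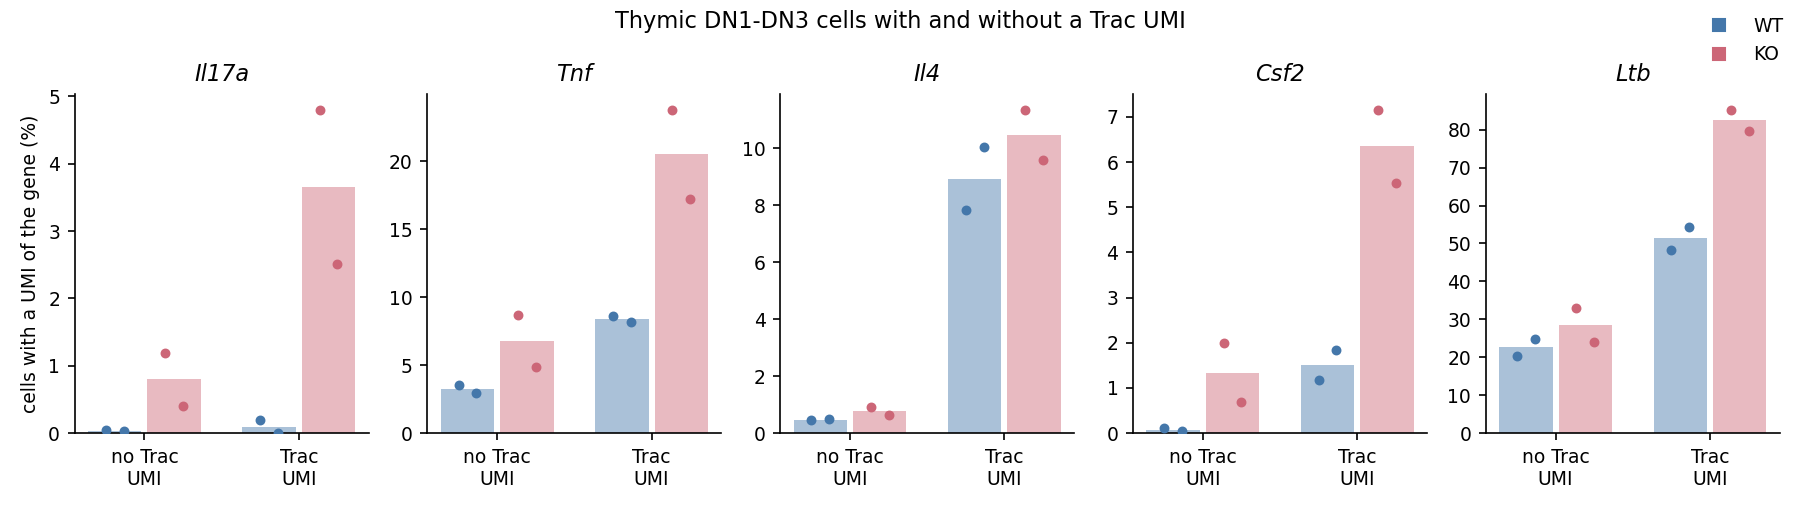
Share of DN1-DN3 cells with a UMI of Il17a, Tnf, Il4, Csf2 and Ltb, in percent, for cells without and with a Trac UMI, with WT in blue and KO in red. Bars are the mean of 2 libraries and points are the libraries. Il17a, Tnf, Csf2 and Ltb are higher in both KO libraries among cells with a Trac UMI. The shares of Il4 overlap between the genotypes there, while its CPM, which is not drawn, does not.

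Cells of the DN1-DN3 libraries that held UMIs of Ptcra and of the recombinase gene Rag1 but none of Trdc served as a class that should lack effector cytokines. There were 963 and 1262 such cells in WT and 735 and 1373 in KO, with median depths of 6179, 5460, 6401 and 6136 UMIs. Il17a was seen in none of them in WT, which allows shares of up to 0.312% and 0.238% (3 cells of the class, counting error only), and in 1 and 3 of them in KO. In the other cells of the KO libraries it was seen in 2.73% and 0.906%, at median depths of 5490 and 5680 UMIs. Il4 was at 1.09% and 0.583% of this class in KO and 0.623% and 0.238% in WT, and Tnf at 5.31% and 3.28% in KO and 3.32% and 2.22% in WT. The whole DN1-DN3 WT libraries held Tnf in 3.91% and 3.28% of cells, against exact 95% intervals of this class of 2.28% to 4.66% and 1.48% to 3.19%, so the first library lay within and the second just above. Csf2 was in 0.180% and 0.161% of the cells of the whole WT libraries and in 0.208% and 0.0792% of this class, which is part of them. The class share rests on 2 and 1 cells, and no difference shows beyond counting error. The same held for Ifng and Il17f. Ltb was in 21.7% and 28.8% of the WT cells of this class and in 22.3% and 26.5% of the other WT cells. The class is therefore no background for Ltb. WT cells with a Trac UMI held more, with Csf2 in 1.17% and 1.84% and Ltb in 48.3% and 54.3%. The Il17a-positive KO cells carried Maf in 95.4% and 91.5%, against 50.2% and 36.5% of the cells without Il17a, and Zbtb16 in 90.1% and 74.6%, against 36.9% and 15.6%. Ptcra was found in 9.30% and 11.9% of them and in 29.6% and 47.7% of the others.

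Splenic WT cells with a UMI of Il17a or Csf2 also carried Maf more often than the rest. Maf was detected in 57.9% and 45.8% of the 19 and 48 WT cells with Il17a and in 20.1% and 21.1% of those without it. Among the 131 and 185 WT cells with Csf2 it was detected in 70.2% and 60.0%. In KO spleen Maf was detected in nearly all cells whether or not they held Il17a, in 99.8% and 99.6% of the positive and 97.1% and 97.5% of the negative cells.

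Of the regulators of the members, 36 genes that act on their transcription or mRNA decay, 17 rose and 9 fell in the spleen, 21 rose and 7 fell in thymic γδ T cells, and 26 rose and 1 fell in DN1-DN3 cells, with median log2 differences of 0.41, 0.85 and 1.20. Of all genes tested 28.6% rose and 26.1% fell in the spleen, 26.1% and 23.7% in thymic γδ T cells, and 15.2% and 7.73% in DN1-DN3 cells. Trac also differed between the genotypes in DN1-DN3 cells. The counts of this list and of the lists that follow were not repeated without the Trac-positive cells. Il1r1, the IL-1 receptor that drives IL-17 production, rose by 4.01 ± 0.52 in the spleen (edgeR, adjusted p = 0.000119), 4.09 ± 0.52 in thymic γδ T cells (0.000142) and 3.56 ± 0.52 in DN1-DN3 cells (0.00112). Il23r, the IL-23 receptor, rose by 4.62 ± 0.58 in thymic γδ T cells (adjusted p = 0.000135). Its effect was lower in the spleen by -2.80 ± 0.72 (0.017), and within splenic Trgv6 cells Il23r was lower in KO by -1.10 ± 0.13 (0.000159). Maf rose by 3.55 ± 0.29 in DN1-DN3 cells (5.35e-05). Eomes, a type 1 factor, was lower by -4.08 ± 0.35 in the spleen (7.57e-06) and by -3.43 ± 0.39 in thymic γδ T cells (7.42e-05). It is also one of the NK and group 1 innate markers given above, whose sum was lower in KO spleen. Sox4 was lower by -4.47 ± 0.26 in the spleen (7.97e-07) and Blk, a kinase of IL-17-producing γδ T cells, was higher by 3.82 ± 0.28 (2.74e-06).

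Of 55 other cytokines and chemokines 35 could be tested. In the spleen 8 rose and 12 fell, with a median of -0.96, and in all 57.1% were called, close to the 28.6% of all genes that rose plus the 26.1% that fell. The 3 with the largest fall were Xcl1 (-4.27 ± 0.36, edgeR adjusted p = 6.98e-06), Tnfsf8 (-3.96 ± 0.19, 2.52e-07) and Ccl5 (-3.91 ± 0.24, 1.15e-06), among which Xcl1 and Ccl5 are chemokines of NK and cytotoxic cells. Markers of NK cells were also lower in KO spleen, as given above, and their part in these falls was not tested. In thymic γδ T cells 11 rose and 7 fell, where 26.1% of all genes rose and 23.7% fell, so that the 51.4% called is close to the rate of all genes. Hbegf, like Areg a ligand of the EGF receptor, rose by 4.24 ± 0.42 (3.47e-05) there and by 3.42 ± 0.41 (6.91e-05) in the spleen. Lta, the partner of Ltb, rose by 2.23 ± 0.30 (0.000189) in thymic γδ T cells and by 3.33 ± 0.37 (0.000267) in DN1-DN3 cells. In DN1-DN3 cells 17 rose and 2 fell, or 54.3% in all, where 15.2% of all genes rose and 7.73% fell. Xcl1 and Ccl5 rose there by 3.06 ± 0.34 (0.000267) and 2.19 ± 0.23 (0.00023), opposite to the spleen. Ccl5 was lower in KO thymic γδ T cells as well, by -2.08 ± 0.23 (6.83e-05).

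Of 18 receptor chains of the members 14 could be tested. In the spleen 4 rose and 5 fell, in thymic γδ T cells 6 rose and 3 fell, and in DN1-DN3 cells 5 rose and none fell. These are 64.3%, 64.3% and 35.7% of the chains tested, where 28.6%, 26.1% and 15.2% of all genes rose and 26.1%, 23.7% and 7.73% fell, so nothing is read from the counts. The chains of the IFN-γ receptor moved apart in the spleen, with Ifngr1 at -1.68 ± 0.22 (edgeR, adjusted p = 0.000134) and Ifngr2 at 1.20 ± 0.14 (5.65e-05). Ifngr2 also rose by 0.84 ± 0.14 (0.000666) and 0.95 ± 0.14 (0.00118) in the thymic populations. Il10rb, which IL-22 shares with other cytokines, was lower by -1.65 ± 0.15 in the spleen (1.08e-05) and higher by 1.40 ± 0.16 in DN1-DN3 cells (0.000267).

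The order of the 6 groups by mean level differed between members. For Il17a the KO groups of thymic γδ T (94.5 ± 1.67 CPM, SD, n = 2), splenic γδ T (34.7 ± 11.8) and DN1-DN3 cells (5.67 ± 4.02) came before the 3 WT groups, and each gap was wider than the larger SD beside it. For Tnf splenic KO was first (154.3 ± 9.55 CPM), followed by thymic γδ T KO (56.6 ± 12.8), while DN1-DN3 KO (26.6 ± 17.2) and splenic WT (16.8 ± 0.219) did not differ beyond their spread. For Ifng splenic WT was first (3.92 ± 0.607 CPM) and did not differ beyond the spread from splenic KO (2.12 ± 2.08). For Il4 the first 3 groups were thymic γδ T KO (26.3 ± 17.8 CPM), thymic γδ T WT (8.92 ± 1.40) and DN1-DN3 KO (8.48 ± 5.35). Each gap between them was narrower than the larger SD beside it, though the KO difference in thymic γδ T cells was called above. Splenic KO was last (0.221 ± 0.110).

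Across the 12 libraries the genes most like each member in log2(CPM + 1) were found among the 9885 genes whose mean reached 5 CPM. For Il17a they were Lrrc17, Cerk and Igsf11 (Pearson r of 0.993, 0.991 and 0.991), for Tnf Fbxo17 (0.994), Nectin1 (0.991) and Niban2 (0.989), and for Csf2 Mical2 (0.996), Hmga2-ps1 (0.995) and Clnk (0.994). For Ltb they were Tmem9b (0.997), Btg1 (0.993) and Leprotl1 (0.992), and for Il4 A330093E20Rik (0.969), Litaf (0.967) and 2600014E21Rik (0.960). The 12 libraries fall into 6 groups and share 6 droplet runs, so many genes that separate the groups reach such values.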

How the data were processed

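The authors aligned the reads and called cells, and the submitters' processing notes name Cell Ranger 8.0.1 and GRCm39. They split each pool by hashtag and deposited raw UMI counts per gene and cell, with no normalization, for 12 libraries of 6 pools. The genotype of a library was taken from the hashtag map in the labels. A barcode was kept as a cell from 500 UMIs and 200 genes upwards if no more than 20% of its counts were mitochondrial, which left 96911 of 97404 barcodes. No barcode was shared between the libraries of a pool, and at most 0.499% were shared between pools. The cells of a library carried its tag as the leading tag in 99.59% to 100%. No doublet caller was run beyond the authors' split by tag.

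Each library was reduced to its total UMIs per gene, since cells are not replicates, and the rank test over cells that the study used was not run. Ribosomal, mitochondrial and Gm-numbered genes (9548) were left out of the tests, as in the study. The sums were tested with edgeR 4.0.16 (R 4.3.3, limma 3.58.1; quasi-likelihood F test, robust, TMM, filterByExpr) in one fit of 12 libraries with contrasts, two-sided, adjusted by Benjamini-Hochberg over all genes, and called at an adjusted p of 0.05. The test was also run on simulated counts, whose outcome is not given here. CPM are UMIs per 1000000 UMIs of the library, and intervals cover counting error only. Trgv6 cells of the spleen had a fit of their own. Tables and figures were made in Python 3.11.15 (pandas 2.3.3, numpy 2.4.6, matplotlib 3.10.9, scipy 1.17.1).

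The alternatives were DESeq2 1.42.0, no filter on low counts, other cells or scalings, fits of only the compared libraries, each library left out in turn, and the pool number as a replicate block. A fit without 1 library left 1 library in its group, so the spread came from the other groups. Calls gained or lost in such fits carry that limit. The labels say that a number marks a shared pool, and the deviations of same-numbered libraries correlated at 0.290 in the spleen, 0.0630 in thymic γδ T cells and 0.175 in DN1-DN3 cells. Thymic γδ T and DN1-DN3 cells were run in separate pools. In their comparison the block was the replicate number over both populations, and whether these numbers match across pools was not checked. All 10 members are named whatever their values. From the lists, up to 4 called genes per comparison with the largest change and a mean of at least 5 CPM could be named, and for each member with enough RNA the 3 most similar genes. The members, lists and tests were chosen with earlier results of these data known, and the lists are therefore no independent evidence. Promoters were read from RefSeq tables on GRCm38.p6, which is not the build of the counts, and no other coordinates are given.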

Additional observations from a re-analysis of the deposited data

Results flagged for a closer look

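For Il17f the KO effect differed between splenic and thymic γδ T cells by 2.62 on the log2 scale (interaction term in edgeR's quasi-likelihood test, adjusted p = 0.00468). The splenic effect was 3.60 and the thymic effect 0.98, with the WT levels at 0.119 and 0.168 CPM in the spleen and 1.05 and 0.991 CPM in the thymus.

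For Il4 the KO effect differed between splenic and thymic γδ T cells by -4.53 on the log2 scale (same test, adjusted p = 0.00629). It was -2.87 in the spleen and 1.66 in the thymus, with the CPM of both KO libraries below WT in the spleen and above WT in the thymus. The shares of thymic γδ T cells with an Il4 UMI overlapped between the genotypes, and the thymic effect was 0.78 without the first KO library. Neither the splenic nor the thymic effect passed without a filter on low counts.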

How the results depend on the processing

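Of 870 log2 differences of the members under other settings, 793 kept their direction and their side of the threshold, 40 no longer passed, 21 came to pass and 16 changed sign. None of the 16 belonged to a difference that was called in the report. Over the fits that each left out 1 library, the 5 differences concerned ran from -0.25 to 1.67, -0.73 to 1.17, -1.37 to 1.15, -0.24 to 0.31 and -0.21 to 0.03, in the order in which they follow. For Areg they were -0.25, -0.18 and -0.42 in DN1-DN3 cells (without the first WT library, without the first KO library, and in cells without a Trac UMI) and 0.63, 0.22 and 1.17 for WT thymic γδ T over DN1-DN3 cells (UMIs capped per cell, without the second thymic WT library, without the second DN1-DN3 WT library). For the difference between organs they were -0.01 (replicate block) and -1.37 (without the first splenic KO library, adjusted p = 0.0495) for Ifng, and for Tnf -0.06 (without the deepest cells), -0.07 (capped UMIs) and -0.06, -0.03, -0.06 and -0.24 (each without 1 library). For Ltb in Trgv6 cells they were 0.03 and 0.01 (each without 1 library).

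The number of members called in DN1-DN3 cells was 7 and fell to 4 in cells without a Trac UMI, and leaving out 1 library gave 4 to 7. It was 4 without either WT library or without the first KO library. The difference between organs was called for 2 members and for 4 with DESeq2, with the replicate block of pools, or in a fit of only the compared libraries, and leaving out 1 library gave 2 to 3. In Trgv6 cells leaving out 1 library gave 1 to 3 calls against 3, Areg included. Beside the calls given with the results, the block changed that of Areg in Trgv6 cells and no other. The other counts stayed within 1.5 times, and the causes were not tested. The share of all genes called is not given for these settings, so nothing is read from these counts. Depth limits Il22, Il13 and Il17a of WT DN1-DN3 cells, which rest on 1 to 4 UMIs a library, and of 30 differences in the share of cells, 16 moved by more than their spread after thinning, 20 when 2 UMIs were required and 1 without the deepest cells.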
